A study of Mus musculus with 234 samples.

Results

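The 10 genes *Vwf*, *Cav1*, *Dll4*, *Gpihbp1*, *Fabp4*, *Pecam1*, *Cdh5*, *Kdr*, *Emcn* and *Tie1* are known for their expression in vascular endothelium, and they were followed here through wells into each of which 1 cardiomyocyte (CM) was picked by hand. They are 10 of 55538 features in the count matrix, of which 23664 had a count in at least 1 well, and each was found by its symbol on 1 row. The genes were chosen by an earlier reading of the same counts, so that their levels per well and their co-detection are a description with no test, and the fits between groups, which run over all genes, are no independent evidence for them. All 10 had counts, and all 10 passed the filter on low counts in each of the 3 comparisons between groups.

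Hearts were dissociated on a Langendorff apparatus, and CMs were pipetted by hand into 96-well plates, processed with SMART-seq2 and sequenced. Control CMs came from mice M26 (24 wells) and M73 (9 wells), whose titles read wt and whose strain is labelled C57BL/6. The study describes its control mice as siblings of the transgenic mice that are wild-type or carry the Cre or the unrecombined transgene alone. Homozygous CMs, labelled PGKcre:BAG3P209L_homo, came from mice M25 (21 bright and 18 dim wells) and M116 (59 bright and 50 dim wells), and heterozygous CMs, labelled PGKcre:BAG3P209L_het, from mouse M72 (27 bright and 26 dim wells). In these mice the CAG promoter drives human BAG3 P209L fused to eGFP after PGK-Cre has removed a stop cassette, and bright and dim refer to the eGFP fluorescence of the picked cell. The homozygous and control mice were 2 weeks old, and the age of mouse M72 is not given. All groups were picked cells of the ventricles after removal of the atria, on a mixed background, and neither sex nor litter was matched. As the heterozygous label has 1 mouse, no test was made on it.

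Total counts per well ran from 487 to 1392253 (median 711527), and 15 wells had fewer than 1000 detected genes. Each well had a pair of index sequences that no other well shared. The transgene, counted as human BAG3, reached 294 and 232.5 CPM (counts per sum or well, scaled to a common total) in the bright and 10.7 and 99.6 CPM in the dim wells of mice M25 and M116, against at most 0.488 CPM in the control wells of either mouse. In mouse M72 it went against the labels, with 104.8 CPM in the wells labelled het_bright and 251 CPM in those labelled het_dim, so that brightness in this mouse is given as labelled only. Of the 8 CM markers *Myh6*, *Tnnt2*, *Tnni3*, *Actc1*, *Myl2*, *Ryr2*, *Pln* and *Ttn*, each well had a count for at least 7. In 3 wells labelled homozygous bright of mouse M25 these markers summed to 573, 2033 and 4715 CPM only, against a median of 82755 CPM over all wells. None of the 3 wells held a count of the 10 genes, and without them no call among the 10 changed in any comparison.

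The endothelium lines the vessels of the heart, and each CM lies next to capillaries, from which it takes up oxygen and fatty acids. KDR is the main receptor for VEGF-A, TIE1 is a receptor-type kinase that works together with TEK in the angiopoietin pathway, and DLL4 is a Notch ligand of arteries and sprouting tip cells. VE-cadherin (*Cdh5*) and PECAM1 hold neighbouring endothelial cells together, endomucin (*Emcn*) is a sialomucin of capillary and venous endothelium, and von Willebrand factor (*Vwf*) is stored in endothelial cells, mostly of larger vessels, and captures platelets. CAV1 is the coat protein of caveolae, GPIHBP1 carries lipoprotein lipase to the luminal face of capillaries, and FABP4 binds fatty acids inside capillary endothelial cells and adipocytes.

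Transcription of endothelial genes relies on factors of the ETS family, which bind the core letters GGAA, and on GATA factors, and the windows around annotated start sites were therefore searched for the letters AGGAAG and AGATAA on both strands, which do not overlap in the windows of the 10 genes. RefSeq (GRCm38.p6) gave windows of 300 bases, from 250 before to 50 after the start, for 5 of the 10 genes. They are *Cav1*, *Dll4*, *Emcn*, *Kdr* and *Tie1*. There was no entry for *Vwf*, *Gpihbp1*, *Fabp4*, *Pecam1* and *Cdh5*. *Emcn* (chr3:137340828-137341127, plus strand) and *Tie1* (chr4:118489800-118490099, minus strand) are shown because each held AGGAAG at 2 places, and *Kdr* (chr5:75978406-75978705, minus strand) because it held neither motif although it shared most of its wells with *Tie1*. Each is written 5′ to 3′ on the strand of the gene, with the matches in capitals.
Emcn: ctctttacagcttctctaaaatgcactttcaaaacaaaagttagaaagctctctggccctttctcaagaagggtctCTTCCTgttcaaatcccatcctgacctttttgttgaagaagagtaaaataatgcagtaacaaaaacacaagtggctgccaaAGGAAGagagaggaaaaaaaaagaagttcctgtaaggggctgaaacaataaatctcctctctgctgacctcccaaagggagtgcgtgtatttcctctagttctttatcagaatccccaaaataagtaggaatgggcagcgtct
Tie1: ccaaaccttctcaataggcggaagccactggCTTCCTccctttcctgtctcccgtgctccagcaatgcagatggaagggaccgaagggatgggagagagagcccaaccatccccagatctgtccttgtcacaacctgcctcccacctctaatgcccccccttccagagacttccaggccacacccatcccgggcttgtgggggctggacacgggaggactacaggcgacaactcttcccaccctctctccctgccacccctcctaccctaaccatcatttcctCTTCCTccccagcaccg
Kdr: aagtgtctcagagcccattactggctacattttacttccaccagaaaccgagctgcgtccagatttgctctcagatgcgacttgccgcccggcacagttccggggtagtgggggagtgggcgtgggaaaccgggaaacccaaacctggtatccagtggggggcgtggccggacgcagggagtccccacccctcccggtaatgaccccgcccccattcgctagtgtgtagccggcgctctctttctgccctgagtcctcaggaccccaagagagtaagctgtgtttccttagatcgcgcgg
In *Emcn* both matches lay before the start, the nearer beginning 93 bases from it, and in *Tie1* 1 match lay near the upstream end of the window and 1 at base 34 of the transcript. One of the 2 windows of *Cav1* held AGGAAG at base 43 of the transcript, and the window of *Dll4* held neither motif. AGGAAG was present in 35.4% and AGATAA in 11.2% of the 32851 windows of this length, and AGATAA was in none of the 6 windows of these genes. A match describes the letters only, and neither a match nor its lack says whether a factor binds.

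Most wells held few or no reads of these genes, and a smaller number of wells held many of them at once. No gene of the 10 had a count in 44% of the wells, while 63 wells had 1 gene, 17 wells had 2 and 6 wells had 3. No well had exactly 4, and 45 wells (19.2% of all) had 5 to 10 of the 10 genes. These 45 wells held 58970 of the 59533 counts of the 10 genes (99.1%). In the 86 wells with 1 to 3 genes, the 10 genes together had 563 counts, and 80 of these wells had fewer than 10. With a minimum of 10 counts for a gene, 78.6% of the wells had none of the genes and 32 wells had 5 or more, which held 92.5% of the counts.

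**Figure D1:**
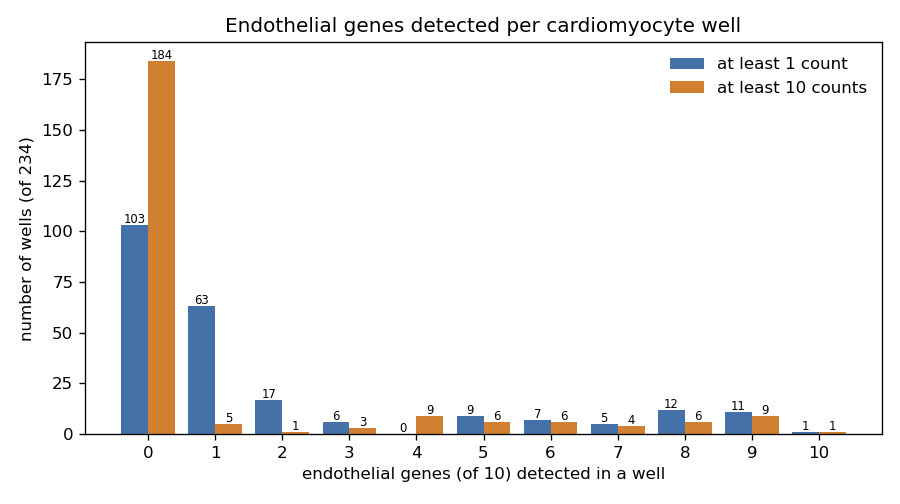
Number of wells (vertical axis) by the number of the 10 endothelial genes detected in a well (horizontal axis), for a minimum of 1 count (blue) and of 10 counts (orange). At 1 count, 44% of the wells held none of the genes, no well held 4, and 45 wells held 5 to 10.

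Single wells reached high levels. The control well with the most counts of these genes (mouse M26, plate position B10) had 5300 counts of them, or 4179 CPM. *Fabp4* took 2463 CPM of this, *Gpihbp1* 648, *Kdr* 286, *Cav1* 281, *Pecam1* 160.8, *Cdh5* 148.2, *Tie1* 100.9, *Emcn* 70.2 and *Dll4* 19.7 CPM, and *Vwf* had no count. The same 9 genes were counted in a homozygous dim well of mouse M25 (D4, 4578 counts), a homozygous dim well of mouse M116 (D6 of plate GL9989-3, 4520 counts) and a well of mouse M72 labelled het_bright (B1, 3984 counts), all 3 again with no count of *Vwf*. All 10 genes were counted in a single well, a dim well of mouse M116 (H7 of plate GL9989-3), with 703 CPM of *Fabp4*, 616 of *Cav1*, 430 of *Pecam1*, 382 of *Gpihbp1*, 314 of *Dll4*, 283 of *Cdh5*, 216.3 of *Emcn*, 106.25 of *Kdr*, 67.04 of *Vwf* and 60.7 of *Tie1*. *Dll4* was higher in this well than in any other. At the other end of the 45 wells, 1 well had 5 genes with a total of 5 counts.

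All 5 groups had such wells. Wells with 5 or more of the genes were 2 of 24 (8.33%, exact Clopper-Pearson 95% interval 1.03 to 27%) in control mouse M26 and 4 of 9 (44.4%, 13.7 to 78.8%) in control mouse M73. They were 4 of 21 (19%, 5.45 to 41.9%) of the bright and 6 of 18 (33.3%, 13.3 to 59%) of the dim wells in mouse M25, and 10 of 59 (16.9%, 8.44 to 29%) of the bright and 11 of 50 (22%, 11.5 to 36%) of the dim wells in mouse M116. In mouse M72 they were 2 of 27 (7.41%, 0.910 to 24.3%) of the wells labelled het_bright and 6 of 26 (23.1%, 8.97 to 43.6%) of those labelled het_dim. The share was higher in dim than in bright wells of each homozygous mouse, with intervals that overlap, and the control mice lay farther apart than the classes of any other mouse. The wells lay on all 4 plates, with 12, 12, 12 and 9 wells per plate. The intervals treat the wells of a class as independent draws and do not cover the spread between mice, since wells of 1 mouse are not replicates.

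Wells with these genes also had CM markers. In the 45 wells with 5 or more of the genes, all 8 CM markers had counts in every well, and their sum lay between 49218 and 99269 CPM, inside the range of all wells (573 to 160521 CPM). Their median of 72544 CPM was below that of the wells with none of the genes (82747 CPM) and with 1 to 3 of them (86472 CPM). Over all wells, with each value centred on its mouse and brightness class, Pearson's r of the summed endothelial genes with single CM markers ran from -0.12 (*Ttn*) to 0.04 (*Actc1*), on the log2(CPM + 1) scale. It was 0.01 with total counts, 0.28 with the number of detected genes and 0.03 with human BAG3. These correlations share the library and its depth and are a description. The 45 wells held between 215148 and 1392253 counts. With each well thinned to 200000 counts, which left out 20 shallower wells, 42 wells had 5 or more of the genes.

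Low counts were most frequent for *Fabp4*, which had 1 to 9 counts in 47 wells, and for *Cav1*, with 24 such wells. After thinning, the wells with a count of *Fabp4* fell in number from 91 to 52. Wells with 1 to 9 counts of *Fabp4* shared 1 of their index sequences with wells that together held a median of 4616 *Fabp4* counts, against 2636 for the wells without a count, and for *Cav1* the medians were 1510 and 1108. The part of shared index sequences in these low counts was not tested.

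Of the receptors and the Notch ligand, *Kdr* had 4455 counts in 41 wells, with 468 in its highest well. A total of 99.9% of its counts lay in the 45 wells with 5 or more of the genes. *Tie1* had 1637 counts in 36 wells, and 34 of the 36 were among the 45. *Dll4* was counted in 14 wells, all of them among the 45, with 248 and 110 counts in its highest wells. Each of the 14 wells with *Dll4* also had *Cav1* and *Gpihbp1*, and 13 of them had *Kdr*. *Dll4* was thus the rarest of the 3, and no well had it without several other endothelial genes.

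Of the junction and surface proteins, *Pecam1* was counted in 53 wells, *Cdh5* in 47 and *Emcn* in 39, with 41, 39 and 36 of these among the 45 wells. The highest count of a gene in a single well outside them was also of *Pecam1* (141.1 CPM), in a bright well of mouse M116 (B4 of plate GL9989-3) that had no other gene of the 10. *Cdh5* never exceeded 1 count outside the 45 wells. *Kdr* and *Tie1* shared 31 wells, which was 75.6% of the *Kdr* wells and 86.1% of the *Tie1* wells, and *Cdh5* shared 32 wells with *Tie1*, 88.9% of the *Tie1* wells.

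Of the genes for caveolae and lipid uptake, *Fabp4* had the most counts (25922 in 91 wells, up to 3124), followed by *Cav1* (8587 in 61 wells, up to 1001) and *Gpihbp1* (7798 in 49 wells, up to 822). *Gpihbp1* and *Fabp4* shared 39 wells, 79.6% of the *Gpihbp1* wells and 42.9% of the *Fabp4* wells. At a minimum of 10 counts they shared 34 wells, out of 35 wells for *Gpihbp1* and 44 for *Fabp4*. Per kilobase of exonic sequence (GENCODE M21, the union of annotated exons), the level over all wells was 35.4 CPM per kb for *Fabp4*, 18.7 for *Gpihbp1* and 15.3 for *Cav1*. It was 4.12 for *Cdh5*, 4.01 for *Pecam1*, 3.02 for *Kdr*, 2.701 for *Emcn*, 2.04 for *Tie1*, 1.21 for *Dll4* and 0.414 for *Vwf*. On this scale *Cdh5* and *Pecam1* lay closest together, and *Vwf*, whose exons span 16064 bases, was lowest.

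**Figure D2:**
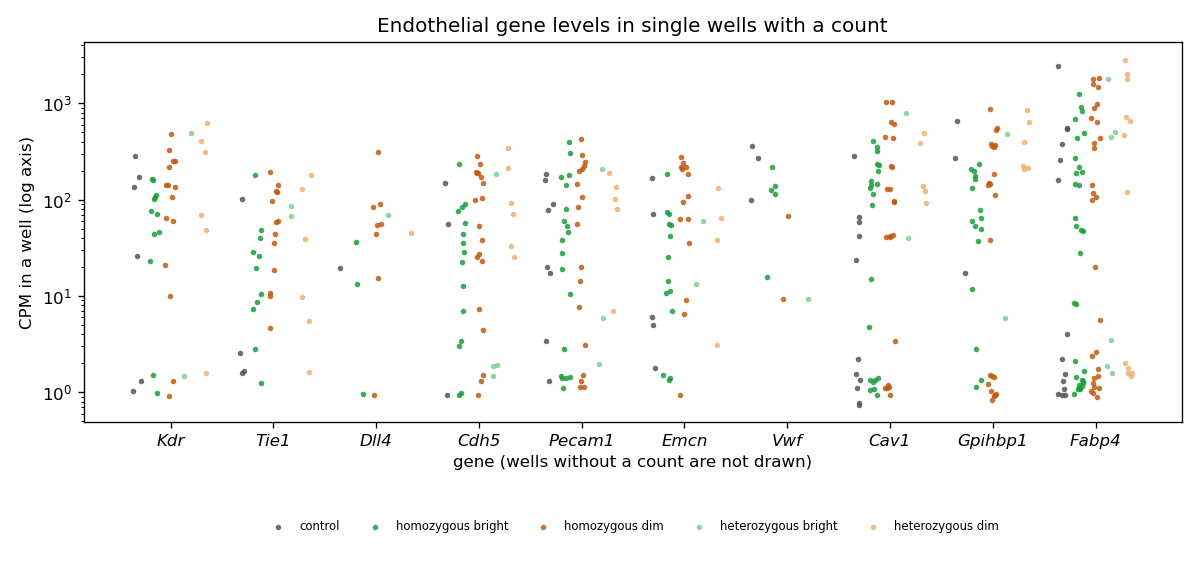
CPM of each endothelial gene in single wells (vertical log axis) for the 10 genes (horizontal axis), coloured by genotype label, 1 point per well with a count and wells without a count left out. *Fabp4* and *Cav1* show a separate band of wells near 1 CPM, below the wells near and above 100 CPM, and *Vwf* and *Dll4* have few points.

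*Vwf* met the other genes of the 10 unevenly. It was counted in 11 wells, at 9.32, 9.41, 15.6, 67.04, 100.2, 114.9, 126.7, 137.5, 218.45, 269 and 364 CPM. It was thus above 100 CPM in 7 of them. Of the 11 wells, 9 were among the 45 wells with 5 or more of the genes. The highest level was in control well H11 of mouse M26, which held 159.3 CPM of *Fabp4*, 77.4 of *Pecam1*, 58.8 of *Cav1* and 1.78 of *Emcn* and no count of *Gpihbp1*, *Kdr*, *Cdh5*, *Tie1* and *Dll4*. Among the 11 wells, *Pecam1* and *Emcn* were counted in 9 each, *Fabp4* in 8, *Cav1* in 6, *Cdh5* in 5, *Kdr* and *Tie1* in 4 each, *Gpihbp1* in 3 and *Dll4* in 1. Among the 36 of the 45 wells without *Vwf*, *Cav1* was counted in 35, *Gpihbp1*, *Fabp4* and *Cdh5* in 34 each, *Pecam1* in 32, *Kdr* in 31, *Tie1* in 30, *Emcn* in 28 and *Dll4* in 13. The 36 wells were chosen for 5 or more of the genes and the 11 by *Vwf* alone. Detection in the 36 is thus partly set by this choice. At a minimum of 10 counts, *Vwf* and *Gpihbp1* had 9 and 35 wells and met in 2, among them the well with all 10 genes.

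Other endothelial genes differed between these sets of wells to different degrees. *Car4*, *Cd300lg*, *Rgcc* and *Cldn5*, which are known from capillary endothelium, were each counted in 1 of the 11 wells with *Vwf*, in each case the well with all 10 genes. In the 36 wells they were counted in 22, 24, 24 and 27. *Aqp1* was counted in 4 of the 11 and 26 of the 36 wells, *Tcf15* in 3 and 26, and *Sox17* in 0 and 9. *Plvap*, which forms the diaphragms of fenestrae and caveolae, was counted in 4 of the 11 and 5 of the 36 wells, and *Lyve1*, a hyaluronan receptor of lymphatic endothelium and of some macrophages, in 3 of the 11 and in none of the 36. The genes *Eng* (10 of 11 and 34 of 36 wells), *Egfl7* (8 of 11 and 35 of 36) and *Flt1* (8 of 11 and 27 of 36) were found in most wells of both kinds. The wells were divided after their values were seen, and the division was not tested.

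**Figure D3:**
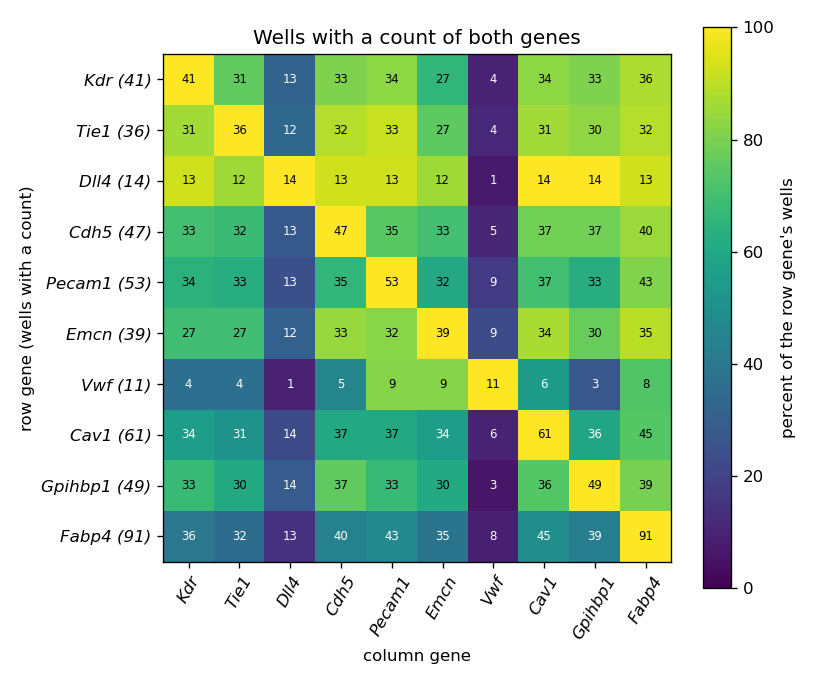
Number of wells with a count of both the row gene and the column gene (number in each square, the wells of a single gene on the diagonal), coloured by the percent of the row gene's wells. *Vwf* shared 3 wells with *Gpihbp1* and 1 with *Dll4*, while all 14 *Dll4* wells had *Gpihbp1*.

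Further endothelial genes were in the same wells. Of 29 other endothelial genes, 28 had a count in some well, and 22 of the 28 had at least 90% of their counts in the 45 wells. The 45 wells had between 3 and 26 of the 29 genes, the wells with 1 to 3 of the 10 genes had at most 11, and the wells without any had at most 3. Counts of *Flt1*, a second VEGF receptor, lay in the 45 wells to 99.5%, those of *Tek*, the angiopoietin receptor, to 89.8%, and those of the junction gene *Cldn5* to 99.7%. *Robo4* (60.1%) and *Plvap* (69.6%) lay in them the least often, and *Ackr1* had no count. Over all wells and 13300 genes, the genes whose pattern was most like the sum of the 10 were *Cd93* (r = 0.83), *Egfl7* (0.82), *Eng*, *Adgrf5* and *Ly6e* (0.80 each), *Ptprb* and *Icam2* (0.79 each), *Ly6c1* (0.78), and *Flt1* and *Tspan13* (0.77 each). A total of 5 of these 10 genes were in the list of other endothelial genes.

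Of the partner genes, those of VEGF and lipid uptake were found in nearly all wells. *Vegfa* was counted in 91.5% of the wells, *Vegfb*, another ligand of the VEGF family, in 94.4%, *Lpl*, the lipase that GPIHBP1 carries, in 99.1%, and the fatty acid transporter *Cd36* in 97.4%. The 45 wells held 21.4% of the *Lpl* and 29.3% of the *Cd36* counts. In contrast, *Nrp2* (98.4%), *Notch1* (91.4%) and *Cav2* (99.6%) had most of their counts in the 45 wells, whereas *Cav3*, the caveolin of muscle, had 18.5% there. Of the cavins, which coat caveolae together with caveolins, *Cavin4* had 20.6% of its counts in the 45 wells, *Cavin1* 34.7% and *Cavin2* 42.6%, and they were counted in 89.7%, 92.7% and 88.5% of all wells.

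Markers of other cell types were present in part. The pericyte genes *Rgs5* (81.7%), *Vtn* (85.3%), *Kcnj8* (76.3%) and *Pdgfrb* (76%) had most of their counts in the 45 wells, and *Rgs5* was counted in 26 of them. *Cspg4*, another pericyte gene, had 38.6% of its counts there and was counted in 17 of them and in 28 other wells, and the actin gene *Acta2* had 22.3% there. *Tagln* and *Myh11*, which define smooth muscle, had 16 and 2 counts in all wells. Of the 45 wells, 34 had a count for at least 1 of the 7 fibroblast markers (0 to 1952 CPM in sum), 9 for at least 1 of the 5 erythroid, 8 for at least 1 of the 4 platelet markers, and 2 for at least 1 of the 8 macrophage and leukocyte markers. In the same order, these were 48, 14, 4 and 8 of the 86 wells with 1 to 3 of the genes. Of the wells with none of the genes (44% of all) they were 30, 16, 7 and 10. A count of the 3 Schwann cell markers was found in 8 of the 45 wells. A count of adipocyte markers was found in 1 of the 45 wells, with 1.41 CPM. Whether the reads of a well came from 1 cell or from several was not tested.

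To compare groups, counts were summed over the wells of each mouse and brightness class, and the 10 genes together were lower in bright than in dim wells of both homozygous mice. They reached 219.1 and 198.97 CPM in the bright wells and 601 and 475 CPM in the dim wells of mice M25 and M116. The control sums lay between these, at 309 CPM (mouse M26) and 385 CPM (mouse M73). In mouse M72 the sums were 317 CPM in the wells labelled het_bright and 583 CPM in those labelled het_dim. Single wells carried much of these sums. One well held 87.5% of the counts in mouse M26 and 90.7% in the wells labelled het_bright, and without it the sums were 41.4 and 31.8 CPM. Without the highest well, the sums were 290 CPM in mouse M73, 116.3 and 156.2 CPM in the bright and 377 and 353 CPM in the dim wells of mice M25 and M116, and 351 CPM in the wells labelled het_dim. The order of dim above bright thus held in both homozygous mice, whereas the control sum of mouse M26 then lay below both bright sums. A sum combines how many wells held these genes with their level in such a well. Over the wells with 5 or more of them, the 10 genes together had a median of 648 and 637 CPM in the bright and 1304 and 1170 CPM in the dim wells of mice M25 and M116, beside the shares of wells given above. The median was 2420 and 687 CPM in control mice M26 and M73. In mouse M72 it was 2366 CPM in het_bright and 1387 CPM in het_dim wells, the other way from the homozygous mice. Mouse M26 and het_bright had 2 such wells each.

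**Figure D4:**
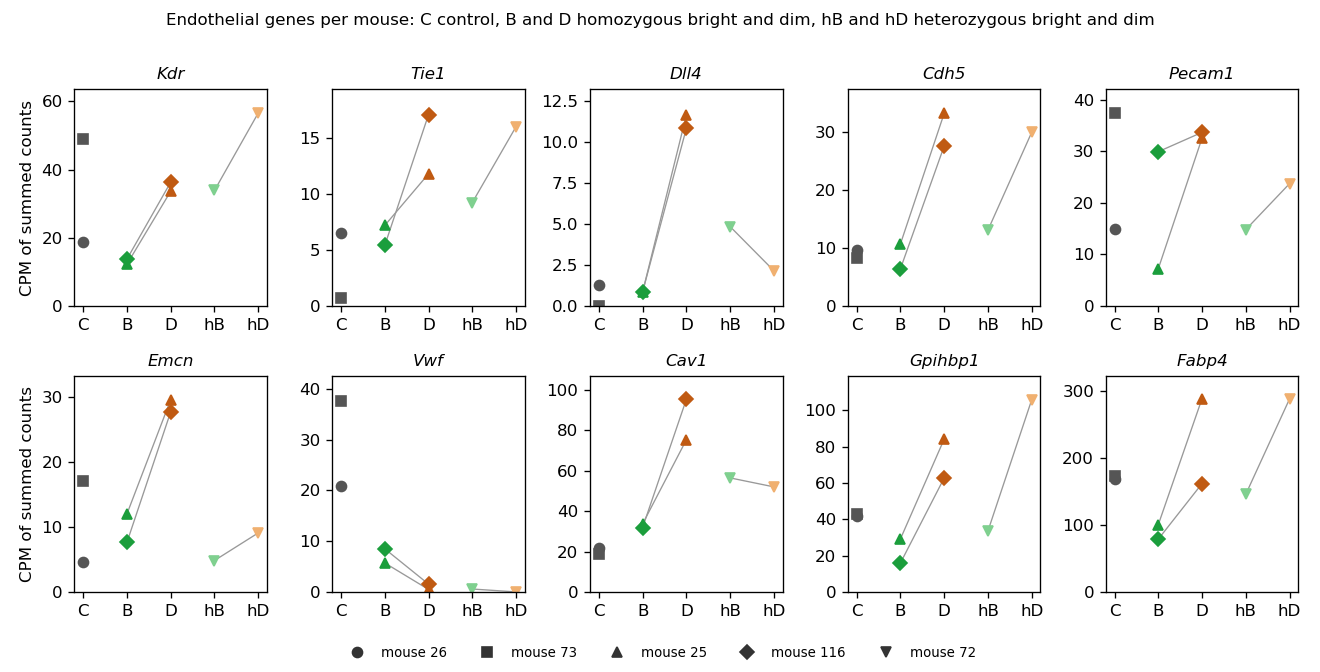
CPM of the summed counts (vertical axes from 0, 1 panel per gene) in control (C), homozygous bright and dim (B, D) and heterozygous bright and dim wells as labelled (hB, hD), 1 symbol per mouse, with lines between the classes of 1 mouse. In both homozygous mice 9 of 10 genes were higher in dim than in bright wells, with *Vwf* the other way.

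Between bright and dim wells of the homozygous mice, 9 of the 10 genes were lower in bright wells in both mice and *Vwf* was higher. *Dll4* had 0.846 and 0.864 CPM in the bright and 11.6 and 10.8 CPM in the dim wells of mice M25 and M116, a log2 fold change of -3.74 ± 0.72 (SE). It was counted in 1 and 2 bright and in 4 and 4 dim wells of these mice, and without the highest well of each sum it had 0 and 0.0253 CPM in bright and 6.06 and 3.71 CPM in dim wells. *Cav1* had 33.7 and 31.9 CPM in bright and 75.3 and 95.3 CPM in dim wells (-1.40 ± 0.25), and *Gpihbp1* 29.2 and 15.9 CPM in bright and 84.1 and 62.7 CPM in dim wells (-1.73 ± 0.42). *Kdr* (-1.46 ± 0.34), *Cdh5* (-1.85 ± 0.47), *Emcn* (-1.57 ± 0.44) and *Fabp4* (-1.37 ± 0.37) had fitted differences of similar size. *Tie1* (-1.22 ± 0.54) and *Pecam1* (-0.89 ± 0.65) were less clear, and *Pecam1* had 29.9 and 33.6 CPM in the bright and dim wells of mouse M116. *Vwf* had 5.71 and 8.49 CPM in bright and 0.490 and 1.54 CPM in dim wells (2.77 ± 0.97), which rested on 5 bright and 2 dim wells. Without the highest well of each sum it had 0 and 5.72 CPM in bright and 0 CPM in both dim sums. No difference was then left in mouse M25. For all 10 genes the CPM of the bright sums did not overlap with that of the dim sums, against 30.9% of all genes tested. The 10 genes lay largely in the same few wells and are not 10 separate observations. Without the highest well of each sum, *Pecam1* had 2.97 and 21.9 CPM in bright and 15.1 and 24.3 CPM in dim wells. Neither *Pecam1* nor *Vwf* was then without overlap.

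In the quasi-likelihood test of edgeR between bright and dim wells, none of the 10 genes was called at an adjusted p under 0.05, nor was any of the 13439 genes tested (0% called), and the adjusted p of each of the 10 was 0.999. At an unadjusted p under 0.05 were 8 of the 10, against 4.12% of all genes (554 genes). The median log2 fold change was -1.43 over the 10 genes and -0.01 over all genes. DESeq2 on the same sums called 6 of the 10 (*Dll4*, *Cav1*, *Gpihbp1*, *Kdr*, *Cdh5* and *Fabp4*, all lower in bright wells, with DESeq2's adjusted p from 1.65e-04 to 0.0451), against 0.882% of the 15083 genes with an adjusted p. The call thus depended on the tool. Of the 27 other endothelial genes tested, none was called by edgeR, 24 were lower in bright wells, and their median log2 fold change was -1.11. The 20 partner genes had a median of -0.56 with none called, where *Ctnnd1*, which has 2 rows, entered with 1 of them.

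Markers of other cells moved between the same sums. The 8 macrophage and leukocyte markers reached 0.264 and 0.0741 CPM in the bright and 91.7 and 67.8 CPM in the dim wells of mice M25 and M116, and the 6 tested were lower in bright wells, none of them called and all 6 at an unadjusted p under 0.05. Of the 45 wells with 5 or more of the 10 genes, 43 had no count of these markers, but the dim well D6 of mouse M116 (plate GL9989-3), one of the highest in the endothelial genes, had 374 CPM of them, and 41.3% of the *Adgre1* and 36.5% of the *Ptprc* counts lay in the 45 wells. In the dim sums, 1 well of mouse M25 held all macrophage and leukocyte counts and 1 well of mouse M116 held 63.2% of them. The erythroid markers reached 4.02 and 0.173 CPM in bright and 345 and 0.813 CPM in dim wells, and the platelet markers 1.27 and 0.0741 against 17.6 and 11.8 CPM. The dim well D4 of mouse M25, which was also high in the endothelial genes, held 99.9% of that mouse's erythroid counts in dim wells, and without it they had 0.524 CPM. Well D6 of mouse M116 held 50.1% of the platelet counts in that mouse's dim wells. The 7 fibroblast markers reached 2263 and 57.9 CPM in bright and 52.3 and 213.75 CPM in dim wells. A bright well of mouse M25 (C8) with 573 CPM of CM markers held 90.2% of the first of these sums, which was 232.5 CPM without it. Of the 8 pericyte and smooth muscle markers, 6 were tested and none was called, 5 were lower in bright wells, and the median log2 fold change was -1.68, with -2.83 for *Pdgfrb*, -3.17 for *Vtn* and -1.12 for *Rgs5*, the 3 with an unadjusted p under 0.05, and 0.69 for *Cspg4*. The CM markers lay between 75336 and 83166 CPM in the 4 sums. The part of other cell types in the difference was not tested.

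Against control wells, the dim wells of the homozygous mice had more *Cav1* and less *Vwf*. *Cav1* had 21.9 and 18.8 CPM in the control wells of mice M26 and M73 (log2 fold change of dim over control 1.77 ± 0.44). *Vwf* had 20.9 and 37.6 CPM in the control wells, counted in 1 of 24 and 2 of 9 wells (-5.15 ± 1.02). *Dll4* had 1.28 CPM in mouse M26 and no count in mouse M73, which allows up to 0.732 CPM (3.73 ± 1.69), and *Cdh5* had 9.65 and 8.30 CPM (1.47 ± 0.69). The *Cdh5* counts of the control mice rested on 1 well each, without which they had 0.0546 and 0 CPM. The levels of *Kdr* (18.6 and 49.1 CPM) and *Pecam1* (14.9 and 37.3 CPM) in the control mice spanned those of the dim wells, and *Fabp4* had 169.01 and 173.3 CPM in control and 289 and 161.9 CPM in dim wells. *Tie1* had 6.54 CPM in mouse M26 and 0.732 CPM, or 3 counts, in mouse M73. The 2 control mice thus differed from each other by more than the dim sums did for *Kdr*, *Pecam1*, *Emcn* (4.65 and 17.1 CPM) and *Tie1*.

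Between dim and control wells edgeR called none of the 10 genes and none of 12195 genes (0%), with adjusted p from 0.735 to 0.999 for the 10. At an unadjusted p under 0.05 were *Vwf* and *Cav1*, against 6.22% of all genes (759 genes). The median log2 fold change was 0.79 over the 10 genes and 0.10 over all genes. Of the CM markers, 7 of 8 were lower in dim wells (median -0.67), and all 6 macrophage and leukocyte markers tested (median 4.17) and the platelet gene *Pf4* (5.85) were higher, none of them called. Their part in the difference was not tested. DESeq2 called *Vwf* (adjusted p = 1.14e-05), against 1.18% of genes. Without the control sum of mouse M26, edgeR called *Vwf* (adjusted p = 0.0390) and *Dll4* (0.0446), the latter against a single control sum of 0 counts, and 827 genes in all, with the lone sum assumed to vary like the dim sums.

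Between bright and control wells the fitted log2 fold change was below 0 for 7 of the 10 genes. *Fabp4* had 100.4 and 78.8 CPM in bright wells against 169.01 and 173.3 CPM in control wells (log2 fold change -1.25 ± 0.34). Well B10 held 94.4% of the *Fabp4* counts of control mouse M26, which had 10.2 CPM without it, below the bright sums without their highest wells (42.2 and 57.99 CPM). *Kdr* (-1.75 ± 0.74) and *Gpihbp1* (-1.22 ± 0.58) were also lower in the fit, and the same well held 99.5% and all of their counts in this mouse. Over the alternative fits, *Kdr* ran from -2.32 to -0.76 and *Gpihbp1* from -1.73 to -0.82. *Vwf* had 5.71 and 8.49 CPM against 20.9 and 37.6 CPM (-2.40 ± 0.75). Without the highest well of each sum it had 0 and 5.72 CPM in bright and 0 and 13.5 CPM in control wells, so that the classes then overlapped. *Cav1* had 33.7 and 31.9 CPM against 21.9 and 18.8 CPM (0.37 ± 0.56), a difference below its error. None of the 10 was called by edgeR, against 2 of 12203 genes (0.0164%), and the adjusted p of the 10 lay between 0.663 and 0.997. At an unadjusted p under 0.05 were *Fabp4* and *Vwf*, against 6.55% of all genes (799 genes). The median log2 fold change was -0.69 over the 10 and 0.11 over all genes. The CM markers had a median of -0.71, with 8 of 8 lower in bright wells, the fibroblast markers 3.66, with 7 of 7 higher, and the pericyte and smooth muscle markers -2.02, with 4 of 6 lower, none of them called. Their part in the difference was not tested. DESeq2 called none of the 10 endothelial genes, against 1.64% of genes. The comparisons with control use the same 2 control mice.

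**Figure D5:**
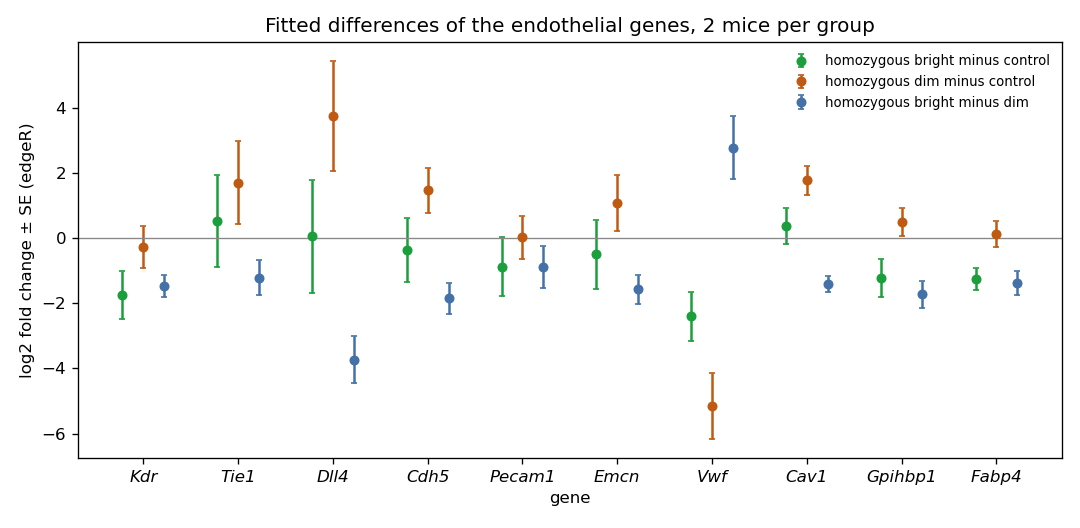
Log2 fold change with its standard error from edgeR (vertical axis) for the 10 genes (horizontal axis) between homozygous bright and control (green), dim and control (orange) and bright and dim wells (blue), 2 mice per group. Between bright and dim wells, 9 genes lie below 0 and *Vwf* above it, at 2.77.

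Within the plate labels, directions against control were mixed. Mice M25 and M26 shared the plate labelled GL-9122b. Mouse M73 was on plate GL9989-1 and mouse M116 on plates GL9989-2 and GL9989-3, so that M116 shared no plate with a control mouse. Under GL9989, plate and genotype thus cannot be told apart. There is no statement of what the labels stand for. Within GL-9122b, 9 of the 10 genes were higher in dim than in control wells and 4 were higher in bright than in control wells. Within GL9989 these counts were 6 and 3. *Cav1* and *Tie1* were higher than in control wells in bright and dim wells of both plate labels, and *Vwf* was lower in each of these 4 comparisons.

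In the heterozygous mouse, 7 of the 10 genes were higher in the wells labelled het_dim than in those labelled het_bright. *Gpihbp1* had 33.6 CPM in het_bright and 105.75 CPM in het_dim wells, *Fabp4* 145.9 and 288 CPM, *Cdh5* 13.1 and 29.9 CPM, and *Kdr* 33.8 and 56.6 CPM. *Cav1* had 56.4 and 51.99 CPM and *Dll4* 4.83 and 2.14 CPM. *Vwf* had 8 counts in het_bright wells (0.577 CPM) and none in het_dim wells, which allows up to 0.222 CPM. As human BAG3 went against the labels in this mouse, the order of its classes is that of the labels.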

How the data were processed

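The authors mapped the reads of each well with STAR, using a mouse reference to which transcripts of human BAG3 and eGFP had been added, and the deposited matrix holds the raw count per gene and well from STAR's GeneCounts option. Demultiplexing with bcl2fastq is named in the submitters' processing notes. The genome build, the annotation and the strand column are not given in the sources used here, so that reads of overlapping genes cannot be told apart and no positions are given other than those of RefSeq windows. SMART-seq2 attaches no molecular identifiers. All 234 columns were mapped to their labels.

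The endothelial genes and all gene lists were chosen with earlier results of these data known. Other endothelial genes, partner genes and cell type markers came from textbook lists, 1 partner gene with 2 rows of the same symbol (*Ctnnd1*) was left out of the values per well and entered the fits with the 1 row that passed the filter, and the most alike genes were the 10 with the highest Pearson's r on log2(CPM + 1) among genes counted in at least 10 wells. The limit given for 0 counts is that of 3 counts in the sum.

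Mice were taken as replicates. For each mouse and brightness class the counts of its wells were added up and compared with edgeR 4.0.16 (R 4.3.3), using filterByExpr, TMM, glmQLFit, glmQLFTest and Benjamini-Hochberg adjustment over all genes. Standard errors were derived from the fold change and its F statistic. Tested on simulated data, the fit recovered 99.5%, 98.5% and 100% of 200 genes changed 8-fold in the comparisons of bright with control, dim with control and bright with dim wells (12203, 12195 and 13439 genes) and called 10, 2 and 3 unchanged genes. The simulated counts had the same fixed dispersion for every gene, and the changed genes were drawn from those above a minimum level. The recovery therefore does not say how many such changes the fit would find in the real sums, where single wells carried much of the counts. As M25 and M116 each gave a bright and a dim sum, these sums are paired by animal. The differences between these mice in bright and dim wells had a Pearson's r of 0.08 over 13439 genes. Alternatives were DESeq2 1.42.0, library size alone, no filter, wells with at least 1000 genes, wells with at least 10000 CPM of CM markers (chosen after seeing the data), the plate label or the mouse as a block, all 8 sums in 1 fit and each sum left out in turn. The block by plate label took all GL9989 plates together. The heterozygous mouse entered only the fit of all 8 sums.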

Additional observations from a re-analysis of the deposited data

Results flagged for a closer look

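*Cav1* and *Dll4* stood out because they had opposite directions in the 2 genotypes. In both homozygous mice they were lower in bright than in dim wells, with a ratio of bright to dim of 0.447 and 0.334 for *Cav1* and of 0.0726 and 0.0798 for *Dll4* in mice M25 and M116. In the heterozygous mouse the ratio of the wells labelled het_bright to those labelled het_dim was 1.09 for *Cav1* and 2.26 for *Dll4*. The difference between the genotypes was not tested, as there was 1 heterozygous mouse. Of the counts in the wells labelled het_bright, 755 of 782 for *Cav1* and all 67 for *Dll4* lay in 1 well, and human BAG3 went against the labels in this mouse. With the labels turned, the ratios would be 0.921 and 0.443, below 1 as in the homozygous mice, and the 7 genes that were higher in the wells labelled het_dim would then have ratios above 1.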

How the results depend on the processing

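Over 11 alternatives per comparison, *Cav1*, *Cdh5*, *Dll4*, *Emcn*, *Gpihbp1*, *Kdr*, *Fabp4*, *Tie1* and *Pecam1* stayed lower in bright than in dim wells and *Vwf* stayed higher. With the mouse as a replicate block no gene was called between bright and dim wells, so that the paired fit changed no call. The share of tested genes called between bright and control, dim and control and bright and dim wells was 1.64%, 1.18% and 0.882% with DESeq2 and 0.787%, 0.287% and 0.992% without a filter, against 0.0164%, 0% and 0% in edgeR. With all 8 sums in 1 fit it was 0.0301% and 0.00602% in the comparisons with control, and 0.0819% and 0.0984% with the plate label as a block. Leaving out single sums gave 0% to 0.308% between bright and control, 0.0207% to 5.89% between dim and control (5.89%, or 827 genes, without the control sum of mouse M26) and 0% to 0.509% between bright and dim wells (0.509%, or 74 genes, without the bright sum of mouse M116). The calls among the 10 endothelial genes moved too. DESeq2 called 6 of the 10 between bright and dim wells and 1 (*Vwf*) between dim and control wells, no filter called 4 (*Fabp4*, *Gpihbp1*, *Cav1* and *Dll4*) and 1 (*Vwf*), and the fits with a sum left out called 0 to 2 between dim and control wells. Against control, the median log2 fold change of all genes was 0.41 (bright) and 0.38 (dim) by library size alone and 0.11 and 0.10 with TMM, and that of the 10 genes -0.31 and 1.11 by library size alone. Between bright and control, leaving out the control sum of mouse M73 turned *Emcn* to 0.86, *Pecam1* to 0.06, *Tie1* to -0.28 and *Dll4* to -0.81. Between dim and control wells, *Kdr* turned to 0.68 without the control sum of mouse M73 and to 0.05 by library size alone, *Fabp4* to -0.37 without the dim sum of mouse M25, and *Pecam1* to -0.53 without the control sum of mouse M26 and to -0.01 with DESeq2. Wells in which 5 or more genes had at least 10 counts numbered 32, and 12 at a minimum of 100 counts. Wells without any of the genes rose from 44% to 78.6% of all wells at a minimum of 10 counts. Of the 10 most alike genes, 5 were shared with Spearman's rho. The causes of these differences were not tested. There were 2 mice per group, and single wells held up to 90.7% of a sum's counts of the 10 genes together, and all counts of a single gene in some sums.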
